A study of Mus musculus with 36 samples.

Results

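Liver of control mice was compared between zeitgeber time (ZT) 16, in the dark phase when mice feed, and ZT8, in the light phase when they rest. The arrays were chosen by genotype and time alone: 6 control arrays at ZT16 and 6 at ZT8, of 36 in the series. All mice were male, 11 weeks old and given chow ad libitum, under 12 h of light from ZT0 and 12 h of dark from ZT12. Apart from any tamoxifen they were untreated. The controls (IRLWT) belong to a line with LoxP sites around exon 4 of Insr, the insulin receptor gene, in which Insr is intact. In the knockouts (IRLKO), used below only to set the control change beside theirs, a tamoxifen-inducible Cre under the transthyretin promoter (TTR-CreTam) acts in liver. The time of tamoxifen dosing, and whether the controls carried the Cre or received tamoxifen, are not stated in the labels. A control ZT12 group of 6 arrays gives the level between both times. Every array holds total RNA of whole liver, so fewer cells of a type and less RNA per cell cannot be told apart. The labels do not say outright that replicates were separate mice, so the p-values measure only the spread between these samples.

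The circadian clock of liver is a loop in which the activators BMAL1 (gene Arntl) and CLOCK bind E-box sequences and switch on their own repressors, the period and cryptochrome proteins. REV-ERB and ROR receptors close a further loop on Arntl, and the PAR bZIP factors DBP, TEF and HLF carry the rhythm to output genes through D-box sequences. Feeding, glucocorticoids and the daily rise of body temperature in the active phase also set the time of many liver transcripts.

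Promoter stretches of 5 genes are shown because they hold the sequences through which clock and heat shock factors are known to act. They come from the RefSeq promoter table for mouse build GRCm38.p6, which covers 250 bases before to 50 bases after each start of transcription, and are written 5′ to 3′ on the strand of the gene. Capitals mark the E-box CACGTG in Ciart, Tef and Cry1, the D-box TTATGTAA in Per3, and in Hspe1 a pair of overlapping heat shock elements (GAANNTTCNNGAA or TTCNNGAANNTTC). Ciart, a clock repressor, has 3 E-boxes at chr3:95882256-95882355, on the minus strand.
Ciart: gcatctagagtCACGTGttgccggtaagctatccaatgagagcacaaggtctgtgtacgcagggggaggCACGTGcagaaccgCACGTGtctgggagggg
Tef lies on the plus strand, and its stretch is chr15:81802514-81802583.
Tef: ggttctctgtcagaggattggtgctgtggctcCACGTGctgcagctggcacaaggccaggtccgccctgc
Cry1 lies on the minus strand, and its stretch is chr10:85185077-85185146.
Cry1: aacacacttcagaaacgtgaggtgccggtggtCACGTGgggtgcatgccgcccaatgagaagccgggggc
Per3 lies on the minus strand, with 2 D-boxes at chr4:151044799-151044887.
Per3: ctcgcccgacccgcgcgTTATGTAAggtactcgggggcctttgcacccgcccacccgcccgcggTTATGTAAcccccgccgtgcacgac
Hspe1, on the plus strand, encodes the partner of the mitochondrial chaperonin, and its stretch is chr1:55088033-55088102.
Hspe1: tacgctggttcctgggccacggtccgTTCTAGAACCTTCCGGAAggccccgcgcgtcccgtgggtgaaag

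All promoters of the table were searched on both strands for these motifs, with TTACGTAA as a further form of the D-box. An E-box was found for 8.09% of the 27025 genes of the table, and for 4 of the 7 clock repressors that the table holds (Ciart, Cry1, Per1 and Bhlhe41). A D-box was found for 1.23% of all genes and, among the clock genes in the table, for Per3 alone. A heat shock element was found for 0.662% of all genes and for 4 of the 16 heat shock proteins and co-chaperones in the table, namely Chordc1, Hspd1, Hspe1 and Hsph1. Hspd1 and Hspe1 start from opposite strands of the same stretch, so their match is shared. Among genes called at ZT16 over ZT8 (defined below), an E-box was found in 11.3% of the higher ones and 14% of the lower ones, against 10.6% of the tested genes with a promoter in the table. These matches describe sequence only.

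Signal is given on the log2 scale relative to the 75th percentile of each array, so 0 is the level of that percentile, and values of different genes are not compared because probes differ in brightness. The 75th percentile itself was 311 to 446 intensity units on the 12 arrays, 53.7% to 59.7% of spots were well above background, and no spot was saturated. Over all genes, arrays of the same time correlated with r of 0.987 to 0.992 at ZT8 and 0.984 to 0.992 at ZT16, and arrays of different times with 0.976 to 0.986. Of the variance, 33.4% lay on the leading principal component, and time accounted for 98.1% of that. Hepatocyte markers such as Alb (albumin) and Ttr (transthyretin) were well above background on every array. Insr had means of -1.40 ± 0.25 at ZT8 and -1.62 ± 0.25 at ZT16 in controls (SD, n = 6), and of -3.17 ± 0.25 and -3.26 ± 0.25 in the knockouts. Its control difference between the times was -0.20 (SE 0.13, limma adjusted p 0.3).

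Control ZT16 replicate 6 stood apart from the other ZT16 arrays in genes that differ between male and female mouse liver, which were picked after their values were seen. Hsd3b5, a steroid dehydrogenase of male liver, was at -2.16 on that array, while the other ZT16 arrays lay between 3.00 and 5.09. Cyp4a12a, a male-biased cytochrome P450, was at -1.19 against 1.13 to 3.46. Female-biased genes went the other way, with Cyp3a44 at 0.76 against -4.37 to -1.39 and the sulfotransferase gene Sult2a1 at 3.40 against -7.31 to -2.01. Of 2 Y-linked genes, Ddx3y, at -1.38, lay within the range of the other ZT16 arrays (-1.45 to -0.90), and Eif2s3y, at 1.92, lay below theirs (2.03 to 2.18). Cyp2b9, another female-biased cytochrome P450, was at 6.02 against 2.41 to 5.14. Sult2a1, Cyp2b9 and Cyp3a44 have close paralogs, and signal from these was not separated.

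**Figure D1:**
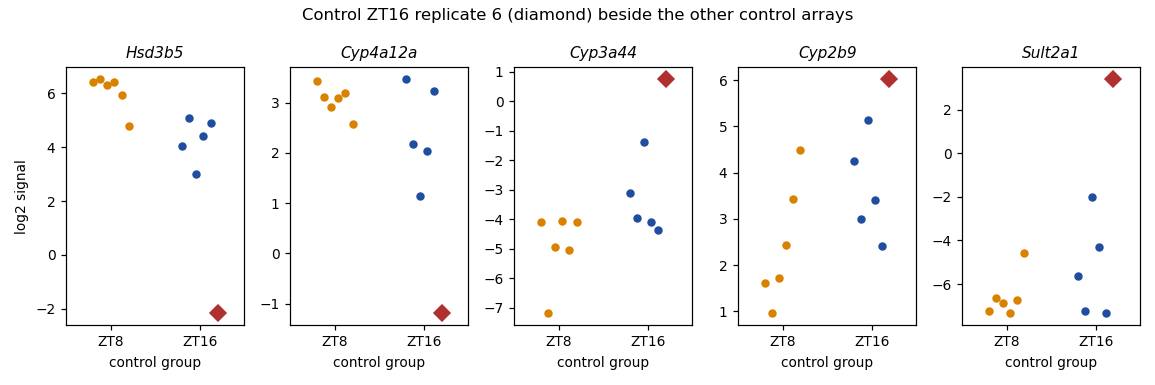
Log2 signal (vertical axes, with each array's 75th percentile at 0) of 5 sex-biased liver genes in the control arrays at ZT8 and ZT16 (horizontal axes, 6 points each, spread sideways by replicate number). The diamond is control ZT16 replicate 6, which lies at -2.16 for Hsd3b5 and 3.40 for Sult2a1, outside the range of the other ZT16 arrays in each panel.

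Leaving out that array changed how some of these genes were called. Hsd3b5 differed by -3.02 (SE 0.91, limma adjusted p 0.013) with all arrays and by -1.93 (adjusted p 0.0827) without it. Cyp3a44 went from 2.20 (SE 0.72, limma adjusted p 0.0223) to 1.34 (adjusted p 0.134), and its call was also lost without ZT8 replicate 2 (1.75, adjusted p 0.0721) or ZT16 replicate 3 (1.88, adjusted p 0.0666). Fitting only the 12 arrays or only the 18 control arrays ended the Cyp3a44 call too, among other settings. Over all genes 5557 were called without the array, against 6085 with it. ZT16 replicate 6 was also the only control ZT16 array of wash batch 1, so a within-batch value for that batch rests on it.

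The comparison asked which transcripts of normal liver differ between feeding phase and rest phase. Of 22882 genes tested, 6085 were called, meaning that limma's adjusted p was below 0.05, which is 26.6% of them. They were split evenly, 3060 genes higher at ZT16 (13.4%) and 3025 lower (13.2%). That balance moved with the scaling. With the 75th percentile taken over probes detected on all arrays, 3648 were higher and 2716 lower. After quantile normalization 2841 were higher and 3156 lower. Most differences were small: the median size among called genes was 0.49 on the log2 scale, and 826 genes reached 2-fold (459 higher and 367 lower). At 4-fold or more were 68 higher and 50 lower genes. The groups of arrays did not overlap for 3615 genes (15.8%), of which 3394 were called. Every count of a gene group below is read against these shares. Of the 16836 tested genes with a RefSeq name 4981 were called, and of the 18271 well above background on all 12 arrays 5489. Both shares are somewhat above 26.6%, so a list share slightly above 26.6% is no excess over such genes.

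Clock genes were among those with the widest differences. Nr1d1, which encodes REV-ERB alpha and represses Arntl, ranged from 0.90 to 1.44 (median 1.16) at ZT8 and from -5.39 to -3.81 (median -4.31) at ZT16. The groups were far apart, and 1 of the 6 ZT16 arrays was no longer well above background. The log2 difference was -5.60 (SE 0.25, limma adjusted p 6.58e-16), a 48.6-fold fall. It was -3.58 with normexp, another background correction. Normexp was run here with an added offset of 50 intensity units, which by itself shrinks log2 differences of dim probes. The Nr1d1 probe lies at chr11:98630526-98631028 (mm9), an interval longer than the probe. Dbp, the PAR bZIP output factor (probe at chr7:52965265-52965324), ranged from 6.48 to 6.72 (median 6.59) at ZT8 and from 1.06 to 2.68 (median 1.94) at ZT16. Its ZT8 arrays lay close together, and all ZT16 arrays lay far below. It fell 25.3-fold, with a difference of -4.66 (SE 0.24, limma adjusted p 1.58e-14). Nr1d2, the paralog of Nr1d1, fell as well, with a difference of -2.15 (SE 0.17, limma adjusted p 9.05e-11) and no overlap.

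The activators Arntl and Clock rose. Arntl, the target that REV-ERB represses, ranged from -4.21 to -2.99 (median -3.84) at ZT8, where 5 of 6 arrays were well above background, and from -0.42 to 0.70 (median 0.13) at ZT16. No ZT16 array came near the ZT8 range. It rose 14.6-fold (3.87, SE 0.33, limma adjusted p 2.87e-10), with a difference of 2.36 after normexp background correction. Clock, the partner of Arntl, rose by 0.57 (SE 0.08, limma adjusted p 3.15e-06), with larger differences of up to 1.84 for its other probes. Nfil3, which competes with the PAR bZIP factors at D-boxes, rose by 1.84 (SE 0.19, limma adjusted p 1.1e-08). Rora, a ROR receptor gene, did not pass the test (-0.02, SE 0.09, limma adjusted p 0.93).

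Among the repressors the family split by member. Cry1, whose promoter E-box is shown above, ranged from -4.17 to -3.37 (median -3.91) at ZT8 and from -2.02 to -0.91 (median -1.58) at ZT16, without overlap. It rose 5.24-fold (2.39, SE 0.21, limma adjusted p 4.44e-10), with a difference of 1.26 after normexp. Per2 rose by 1.39 (SE 0.16, limma adjusted p 4.83e-08), with every ZT8 array below every ZT16 array, although its other probe gave 0.52. Per3 and Ciart went the opposite way. Per3, with the D-boxes, ranged from -0.14 to 0.34 (median 0.04) at ZT8 and from -1.51 to -0.47 (median -0.97) at ZT16, a difference of -1.05 (SE 0.16, limma adjusted p 8.56e-06). Ciart, with the 3 E-boxes, ranged from 0.03 to 1.05 (median 0.63) at ZT8 and from -2.58 to -0.25 (median -1.21) at ZT16, a difference of -1.83 (SE 0.30, limma adjusted p 2.05e-05). The ZT16 arrays of Per1 lay inside its ZT8 range, and it did not pass (-0.04, SE 0.21, limma adjusted p 0.915). Cry2 passed only narrowly (-0.30, SE 0.10, limma adjusted p 0.0309), and the call was lost without ZT8 replicate 2, 4 or 6 or ZT16 replicate 1, 4 or 5, with adjusted p of 0.0622 to 0.0887. It was also lost in 6 other settings, and the 3 probes ran from -0.30 to 0.26. Bhlhe40, a repressor that competes for E-boxes, fell by 0.64 (SE 0.13, limma adjusted p 0.000256).

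Bhlhe41, the paralog of Bhlhe40, was well above background on all 6 ZT8 arrays and on none at ZT16. Its measured means were -3.23 ± 0.15 and -6.89 ± 0.30 (SD, n = 6), and it was at least 3.38-fold lower at ZT16. It passed the filter on dim probes through the control ZT8 arrays alone, so its fall is given with no p. For such genes the bound sets the brighter group against the dimmest spot of each array that still counted as well above background. This bound holds only for the processing used here. Across the alternatives the log2 difference of Bhlhe41 ran from -3.775 to -0.654. Of the output factors besides Dbp, Tef fell by 0.62 (SE 0.12, limma adjusted p 0.000264) without overlap, and Hlf overlapped and did not pass (0.08, SE 0.16, limma adjusted p 0.773). In all, 8 of 11 clock repressors were called (2 higher, 6 lower, median -0.30). The 6 lower ones include Bhlhe41, whose call rests on the filter it passed through control ZT8 alone. Of 4 output factors 3 were called (1 higher, 2 lower, median -0.27). The median over all tested genes was 0.04. Within both lists members moved in both directions.

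**Figure D2:**
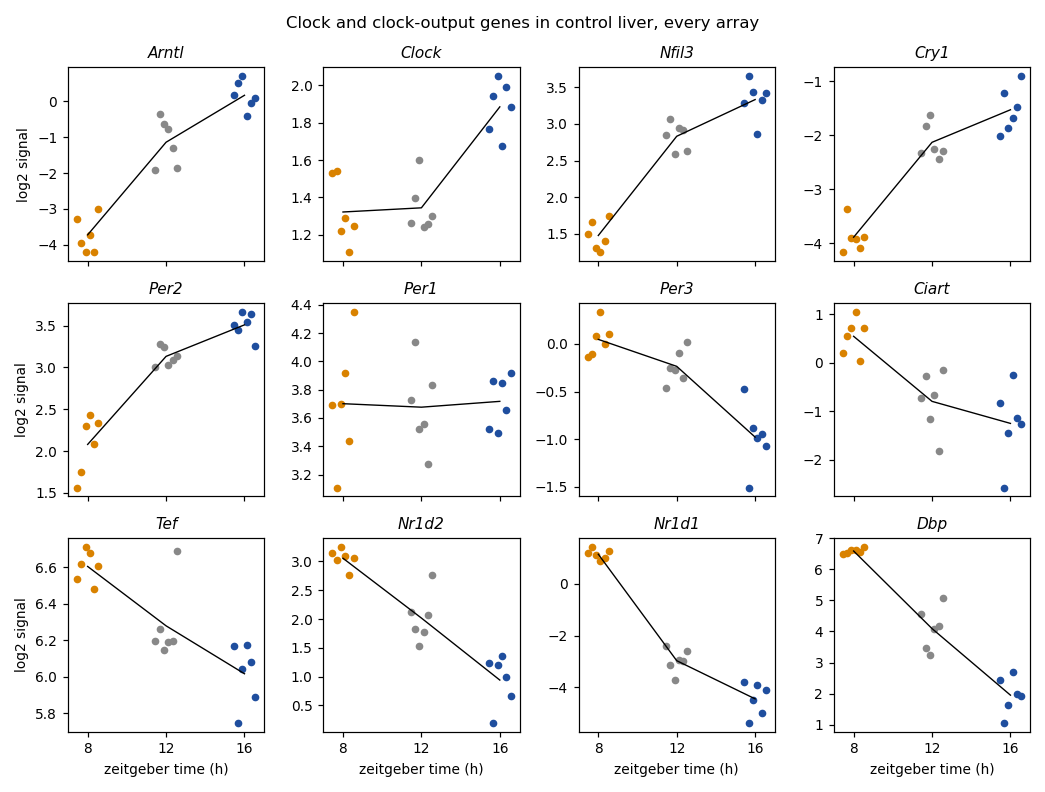
Log2 signal (vertical axes, with each array's 75th percentile at 0) of 12 clock and clock-output genes in every control array at ZT8, ZT12 and ZT16 (horizontal axes, hours after lights-on), with lines through the group means. Arntl, Clock, Nfil3, Cry1 and Per2 are higher at ZT16 than at ZT8, Nr1d1, Nr1d2, Dbp, Ciart, Per3 and Tef are lower, and Per1 shows no difference that passed the test.

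The ZT12 arrays lay between both times for most of these genes; both steps share those arrays, so the levels are given side by side. The mean of Nr1d1 at ZT12 was -2.98, most of the way to its ZT16 range, whereas that of Dbp was 4.09, about midway. Per2 had a ZT12 mean of 3.13, most of the way to its ZT16 level. Clock, by contrast, was still at 1.34, inside its ZT8 range, and Per3 was at -0.24, nearer its ZT8 than its ZT16 range.

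Beyond the clock, the largest changes were taken from the whole array, among genes whose groups did not overlap and whose signal was well above background on each of the 12 arrays. The histone genes H3c15 and H3c14 led the rises. H3c15 ranged from -2.85 to -1.53 (median -2.08) at ZT8 and from 1.28 to 2.11 (median 1.55) at ZT16, a difference of 3.78 (SE 0.22, limma adjusted p 1.84e-13). H3c14 differed by 2.96 (SE 0.22, limma adjusted p 2.94e-11), and since histone H3 genes are nearly identical, the array may not separate them. Other rises were those of the chaperone gene Hsph1 (6.87-fold), the ferritin receptor Scara5 (6.87-fold), the phosphatase Pdxp (6.83-fold), Lonrf3 (6.74-fold) and the acyltransferase Acnat2 (6.69-fold). With normexp background correction the log2 differences of Scara5, Pdxp and Lonrf3 were 1.55, 1.35 and 1.8, against 2.78, 2.77 and 2.75 here, and that of Pdxp was 1.83 in the authors' table. The organic anion transporter gene Slc22a26 (5.9-fold), the monocarboxylate transporter gene Slc16a5 (5.77-fold) and Pcp4l1 (5.43-fold) rose too, and on Slc22a26 and Pcp4l1 control ZT16 replicate 6 was the highest array.

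Among the falls, Dbp was followed by Rgs16 and Egr1. Rgs16, a regulator of G protein signalling, ranged from 5.42 to 6.69 (median 5.97) at ZT8 and from 0.95 to 3.54 (median 1.98) at ZT16. The groups did not overlap, although the ZT16 arrays were widely spread. It fell 15.4-fold (-3.94, SE 0.71, limma adjusted p 7.87e-05). Trib3, a pseudokinase that restrains AKT, fell 8.54-fold, with 2.41 to 3.45 (median 3.24) at ZT8, -0.52 to 0.38 (median 0.16) at ZT16 and a difference of -3.09 (SE 0.26, limma adjusted p 1.59e-10). The lectin-like gene Clec2h (7.18-fold), Cyp2g1 (6.9-fold), Unc93a (5.84-fold), Fbxo21 (5.38-fold), the adhesion receptor Adgrf1 (4.61-fold) and the small Maf factor Maff (4.41-fold) fell as well; Cyp2g1 was at -1.76 with normexp, against -2.79. Wwox, an oxidoreductase gene, fell 5.59-fold by its brightest probe, but its 4 probes ran from -2.48 to 0.27, so they disagree.

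**Figure D3:**
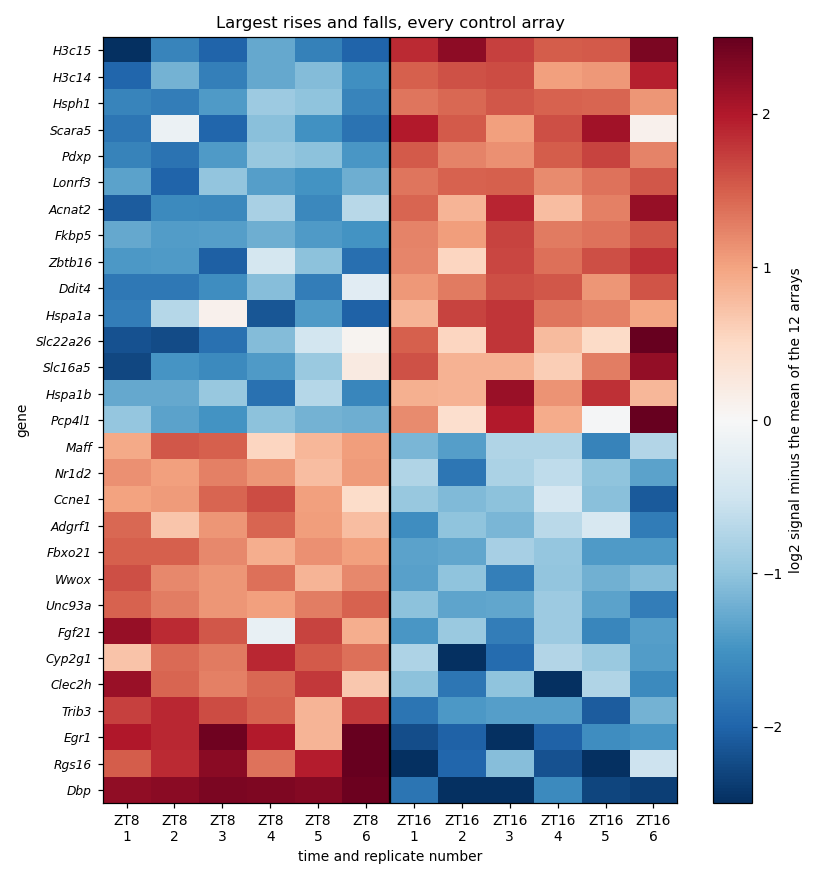
Log2 signal of the genes with the largest rises and falls (rows) in each of the 12 control arrays (columns, by time and replicate number), as the difference from the gene's mean over the 12 arrays. Colours end at 2.5 log2 units either way, so values beyond that, such as those of Dbp on ZT16 replicates 2 and 3, take the end colour.

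Cdkn1a, the cell cycle inhibitor p21, had a still larger difference but was well above background on only 4 of the 6 ZT8 arrays. It ranged from -4.55 to -3.68 (median -4.21) at ZT8 and from 0.38 to 1.76 (median 1.24) at ZT16, with a wide gap between the groups. The difference was 5.34 (SE 0.51, limma adjusted p 2.63e-09), or 3.41 with normexp background correction, and the probe lies at chr17:29237377-29237436 (mm9). Called genes well above background on all 6 arrays of 1 time and none of the other numbered 14 at ZT16 and 10 at ZT8. The 10 include Bhlhe41 and Gpr12, for which no p is given. The signalling gene Shh was at least 5.78-fold higher at ZT16, with means of -6.07 ± 0.80 at ZT8 and -2.35 ± 0.20 at ZT16 (SD, n = 6, limma adjusted p 4.5e-08). Hpdl was at least 5.53-fold higher, with means of -5.91 ± 0.64 and -2.42 ± 0.34 (limma adjusted p 6.61e-10). The receptor gene Gpr12 was at least 2.42-fold lower at ZT16, with means of -3.71 ± 0.27 and -6.36 ± 0.66, and like Bhlhe41 it passed the filter on dim probes through control ZT8 alone, so no p is given. Across the alternatives the log2 difference ran from 0.993 to 3.896 for Shh, 0.971 to 3.688 for Hpdl and -2.886 to -0.458 for Gpr12. These bounds therefore hold only for the processing used here.

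Heat shock proteins rose almost as a whole. Of 20 heat shock proteins and co-chaperones, 17 rose and 1 fell, with a median difference of 1.24 and no overlap of groups for 17 (against 13.4% higher and 15.8% without overlap over all genes). Hsph1, which recharges HSP70, ranged from 1.42 to 2.25 (median 1.63) at ZT8 and from 4.26 to 4.72 (median 4.59) at ZT16 (probe at chr5:150419744-150419803, mm9). The groups were more than 2 log2 units apart, and the difference was 2.78 (SE 0.17, limma adjusted p 2.06e-13). Hspa8, the constitutive HSP70, ranged from 5.39 to 5.62 (median 5.55) at ZT8 and from 7.09 to 7.26 (median 7.18) at ZT16. Its arrays were tightly grouped at each time, and the difference was 1.63 (SE 0.09, limma adjusted p 1.49e-13).

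The HSP90 system moved with them. Hsp90aa1, the inducible HSP90, rose 4.48-fold (2.16, SE 0.13, limma adjusted p 1.55e-13), and Hsp90ab1, the constitutive form, 1.86-fold (0.89, SE 0.08, limma adjusted p 2.4e-10). Stip1, which links HSP70 to HSP90, ranged from 1.16 to 1.40 (median 1.27) at ZT8 and from 2.47 to 2.63 (median 2.58) at ZT16, with a difference of 1.31 (SE 0.08, limma adjusted p 1.55e-13). The small heat shock protein Hspb1 rose 4.98-fold (2.32, SE 0.18, limma adjusted p 6.08e-11), and the HSP70 activator Dnajb1 2.37-fold (1.25, SE 0.13, limma adjusted p 7.53e-09). The inducible HSP70 genes Hspa1a and Hspa1b rose by 2.57 and 2.53, and the array may not separate this near-identical pair. The mitochondrial member Hspe1 had a smaller rise (0.49, SE 0.08, limma adjusted p 3.73e-05), and its partner Hspd1 did not pass (0.21, SE 0.09, limma adjusted p 0.0791), although it did without control ZT16 replicate 6 (adjusted p 0.0371). Hspa4 fell by 0.35 (SE 0.08, limma adjusted p 0.00181), a call that was lost when its 4 probes were averaged (adjusted p 0.103). Hsf1, the heat shock factor, did not pass (0.19, SE 0.09, limma adjusted p 0.13), although it did under 3 alternatives (adjusted p down to 0.0329).

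The cold-inducible RNA-binding proteins differed from each other. Cirbp, which is known to be induced by mild cooling, ranged from 2.49 to 3.02 (median 2.77) at ZT8 and from 0.67 to 1.05 (median 0.77) at ZT16. All ZT16 arrays lay well below the ZT8 range, and the difference was -2.0 (SE 0.14, limma adjusted p 3.25e-12). Another of its 3 probes gave -0.15, so the probes disagree in size. Rbm3 was slightly higher at ZT16 (0.25, SE 0.08, limma adjusted p 0.0233), with overlap, and its call was lost without ZT8 replicate 1, 2 or 5 or ZT16 replicate 1 or 6 (adjusted p 0.0509 to 0.0764). The Rbm3 call was also lost with slide as a fixed block and when only the 12 arrays were fitted.

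Glucocorticoid-responsive genes were mostly higher at ZT16: of 13, 7 rose and 1 fell, and the median was 1.01. Fkbp5, which feeds back on the glucocorticoid receptor, ranged from 2.03 to 2.30 (median 2.14) at ZT8 and from 4.56 to 5.22 (median 4.86) at ZT16 (probe at chr17:28536060-28536119, mm9). The groups were over 2 log2 units apart, and it rose 6.62-fold (2.73, SE 0.25, limma adjusted p 9.54e-10). Zbtb16, a transcription factor, ranged from -0.21 to 1.39 (median 0.40) at ZT8 and from 2.35 to 3.65 (median 3.32) at ZT16, more scattered at ZT8 but without overlap, and rose by 2.71 (SE 0.34, limma adjusted p 4.02e-07). Ddit4, an inhibitor of mTORC1, rose 6.4-fold (2.68, SE 0.35, limma adjusted p 7.05e-07). Tsc22d3, which encodes the anti-inflammatory protein GILZ, rose 3.33-fold (1.74, SE 0.21, limma adjusted p 1.72e-07), and Tat, which degrades tyrosine, 2.02-fold (1.01, SE 0.17, limma adjusted p 4.37e-05).

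The metallothioneins, which bind zinc, rose with more scatter. Mt2 ranged from 1.46 to 4.28 (median 2.24) at ZT8 and from 3.82 to 5.5 (median 5.03) at ZT16. The groups overlapped through ZT8 replicate 6, which lay at 4.28. The difference was 2.45 (SE 0.46, limma adjusted p 0.000142). Mt1 rose by 1.77 (SE 0.33, limma adjusted p 0.000148) by its brighter probe, but its other probe gave -0.70 and the mean of both was not called (adjusted p 0.478). Klf9, also known to respond to glucocorticoids, went against the list and fell by 1.0 (SE 0.18, limma adjusted p 6.33e-05).

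The endoplasmic reticulum (ER) folds secreted proteins, and its chaperones rise when it is loaded. Of 22 ER chaperones and unfolded protein response genes, 14 rose and 0 fell by limma, with a median of 0.62. At an unadjusted p below 0.05, 17 were higher and 0 lower, and across the alternatives at most 1 was lower. Creld2, a disulfide isomerase of the ER, ranged from 3.80 to 4.83 (median 4.13) at ZT8 and from 5.96 to 7.05 (median 6.41) at ZT16. The groups lay more than a log2 unit apart, and it rose 4.76-fold (2.25, SE 0.27, limma adjusted p 1.26e-07). Hspa5, the main ER chaperone BiP, ranged from 6.64 to 7.04 (median 6.77) at ZT8 and from 7.54 to 8.04 (median 7.84) at ZT16, a difference of 1.06 (SE 0.14, limma adjusted p 9.01e-07). Sdf2l1 rose 3.58-fold, the secreted chaperone-like Manf 2.37-fold and the ubiquitin ligase Syvn1 2.26-fold, although the other Syvn1 probe gave 0.27. Edem1, which sorts misfolded glycoproteins for removal, rose by 0.80 (SE 0.08, limma adjusted p 1.7e-08). The transcription factor genes Xbp1 (-0.14, SE 0.13, limma adjusted p 0.479) and Atf6 (-0.14, SE 0.10, limma adjusted p 0.324) did not pass.

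The steps before and after folding moved less. Of 24 genes of ER translocation and vesicle export, 12 rose by small amounts, with a median of 0.24 and the largest rise at 0.45. Mcfd2 and Lman1, which together carry coagulation factors to the Golgi, rose by 0.43 (SE 0.06, limma adjusted p 1.13e-06) and by 0.34 (SE 0.07, limma adjusted p 0.000304), and the Lman1 call was lost when its probes were averaged (adjusted p 0.485). Sar1b, the GTPase that buds chylomicron and lipoprotein carriers, rose by 0.45 (SE 0.11, limma adjusted p 0.00282). At an unadjusted p below 0.05, 18 were higher and 0 lower. The number that rose ran from 7, without ZT16 replicate 2, to 16 across the alternatives.

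Targets of ATF4, the amino acid stress factor, leaned the other way. Of 27 ATF4 targets and tRNA synthetases tested, 9 fell and 3 rose, with a median of -0.22. Besides Trib3, the glutathione-degrading enzyme gene Chac1 fell, ranging from -0.26 to 2.19 (median 0.68) at ZT8 and from -1.62 to 0.82 (median -1.0) at ZT16 with overlap (-1.62, SE 0.42, limma adjusted p 0.00406). The cysteinyl-tRNA synthetase gene Cars fell by 0.85 (SE 0.13, limma adjusted p 8.96e-06), without overlap, while the tryptophanyl-tRNA synthetase gene Wars rose by 0.56 (SE 0.12, limma adjusted p 0.000438). Atf4 itself did not pass (-0.26, SE 0.13, limma adjusted p 0.14), though it did after quantile normalization (adjusted p 0.0173) and in the authors' table (0.00184).

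Several genes of glucose use rose at ZT16. Of 16 glucose uptake and glycolysis genes 7 rose and 0 fell by limma, with a median of 0.23; at an unadjusted p below 0.05, 8 were higher and 2 lower. Without ZT8 replicate 4 the number that rose was 4. Pfkfb1, which makes the activator of phosphofructokinase, rose 2.88-fold (1.53, SE 0.19, limma adjusted p 2.3e-07). Its arrays ranged from 2.58 to 3.11 (median 2.93) at ZT8 and from 4.14 to 4.78 (median 4.40) at ZT16, and its ZT12 mean was 4.33, within the ZT16 range.

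Gluconeogenesis and FoxO targets were mixed, with 4 of 14 lower, 2 higher and a median of -0.07. Igfbp1, an insulin-repressed binding protein of IGF1, ranged from 3.59 to 5.25 (median 4.08) at ZT8 and from 1.41 to 3.98 (median 2.73) at ZT16, with overlap. The difference was -1.48 (SE 0.47, limma adjusted p 0.0187), and the call was lost without ZT8 replicate 6 (adjusted p 0.0635) or ZT16 replicate 5 (0.0604). Fitting only the 18 control arrays ended the Igfbp1 call too. G6pc, the last enzyme of glucose output, differed by -0.96 (SE 0.32, limma adjusted p 0.0245), a call lost without ZT8 replicate 3, 5 or 6 or ZT16 replicate 5 (adjusted p 0.0558 to 0.0868). The G6pc call was also lost when only the 12 arrays or only the 18 control arrays were fitted. The list had 1 lower gene without ZT8 replicate 6 and 2 without ZT16 replicate 5.

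Glycogen genes included a very large fall. Ppp1r3g, a subunit that targets protein phosphatase 1 to glycogen, ranged from -1.76 to 1.19 (median -0.86) at ZT8 and from -6.73 to -4.45 (median -4.92) at ZT16, where only 2 of 6 arrays were well above background. It fell by 4.53 (SE 0.43, limma adjusted p 1.9e-09), by 2.74 on the log2 scale in the authors' table and by 1.99 with normexp background correction, so that the size of the fall is not fixed by these arrays. Ppp1r3b, the main glycogen-targeting subunit of liver, rose instead, from 5.90 to 6.60 (median 6.12) at ZT8 and from 7.03 to 7.35 (median 7.14) at ZT16 (0.96, SE 0.12, limma adjusted p 1.73e-07). Stbd1, which tethers glycogen for lysosomal breakdown, fell by 1.09 (SE 0.15, limma adjusted p 1.05e-06) without overlap. Phka2, a subunit of phosphorylase kinase in liver, fell by 0.95 (SE 0.08, limma adjusted p 5e-10), also without overlap. In all, 6 of 16 glycogen genes fell and 1 rose, with a median of -0.11.

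Lipid genes did not move as a block. Of 26 PPARα targets and fatty acid oxidation genes 5 rose and 2 fell, a share of 26.9% called that is close to the background. The number that rose was 2 or 3 without ZT16 replicate 1, 2 or 3 or ZT8 replicate 1, 3 or 4. The fasting hormone gene Fgf21 ranged from -2.60 to -0.24 (median -0.79) at ZT8 and from -4.13 to -3.32 (median -3.82) at ZT16, without overlap, and fell 6.29-fold (-2.65, SE 0.52, limma adjusted p 0.000227); with normexp background correction the difference was -1.47. Plin5, which ties lipid droplets to mitochondria, rose 2.99-fold (1.58, SE 0.24, limma adjusted p 6.72e-06). Bdh1, which makes the ketone body hydroxybutyrate, fell by 0.85 (SE 0.10, limma adjusted p 1.78e-07). Among 21 genes of fatty acid and triglyceride synthesis 3 rose and 3 fell, with 0 to 5 lower across the alternatives. The share called, 28.6%, is close to the background. Thrsp, a lipogenic regulator, ranged from 5.75 to 7.09 (median 6.87) at ZT8 and from 7.70 to 8.53 (median 8.21) at ZT16 and rose 2.87-fold (1.52, SE 0.32, limma adjusted p 0.000502). Pnpla3, a lipid droplet lipase, rose by 2.23 (SE 0.61, limma adjusted p 0.00609) with wide overlap, and its other probe gave -0.04; the call was lost with the mean of both probes (adjusted p 0.105) and when only the 12 arrays were fitted.

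Cholesterol synthesis had 5 of 24 genes lower and 0 higher by limma, with a median of -0.08, a share of 20.8% that is below the background. At an unadjusted p below 0.05, 9 were lower and 2 higher. Leaving out ZT8 replicate 1, 2, 3, 4 or 6 or ZT16 replicate 2, 3, 4, 5 or 6 left 2 or 3 lower genes, and the count ran from 1 to 10 across all alternatives. Stard4, which moves cholesterol between membranes, fell by 0.71 (SE 0.10, limma adjusted p 9.86e-07) without overlap, though its other probe gave -0.11.

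Bile acid genes leaned lower, with 6 of 19 lower, 2 higher and a median of -0.08. Abcg8 and Abcg5 form the canalicular exporter of cholesterol. Abcg8 ranged from 3.90 to 4.02 (median 3.97) at ZT8 and from 2.52 to 2.76 (median 2.64) at ZT16, tightly grouped at each time, with a difference of -1.34 (SE 0.20, limma adjusted p 7.16e-06). Abcg5 fell by 1.0 (SE 0.19, limma adjusted p 0.000192). Hsd3b7, an enzyme of bile acid synthesis, fell by 0.84 (SE 0.10, limma adjusted p 8.06e-08). Abcb11, the bile salt export pump, fell by 0.71 (SE 0.12, limma adjusted p 2.67e-05). Cyp7a1, the rate-limiting enzyme of bile acid synthesis, overlapped and did not pass (0.51, SE 0.35, limma adjusted p 0.312).

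Genes of amino acid breakdown rose more often than they fell. Of 26 genes of amino acid catabolism and the urea cycle 11 rose and 3 fell, with a median of 0.25. Asl, which splits argininosuccinate in the urea cycle, ranged from 4.83 to 5.35 (median 5.13) at ZT8 and from 6.12 to 6.66 (median 6.31) at ZT16 and rose by 1.23 (SE 0.16, limma adjusted p 9.03e-07), but its other probe gave -0.61 and the mean of both was not called (adjusted p 0.179). Cps1, the first enzyme of the cycle, rose by 0.54 (SE 0.16, limma adjusted p 0.012). Agxt, which detoxifies glyoxylate, fell by 0.99 (SE 0.21, limma adjusted p 0.000587), and Cbs, which makes cystathionine, fell by 0.60 (SE 0.11, limma adjusted p 0.000113).

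NAD genes moved in both directions, 5 of 15 higher and 3 lower, with 1 to 6 lower across the alternatives. Nampt, the rate-limiting enzyme of NAD salvage, ranged from 1.21 to 1.74 (median 1.47) at ZT8 and from 2.03 to 3.12 (median 2.66) at ZT16, without overlap, and rose 2.3-fold (1.20, SE 0.18, limma adjusted p 4.3e-06). Its ZT12 mean of 2.90 was above the ZT16 median. Nnmt, which methylates nicotinamide, rose 2.85-fold (1.51, SE 0.21, limma adjusted p 1.56e-06), and Acmsd, which diverts tryptophan away from NAD synthesis, 3.27-fold (1.71, SE 0.24, limma adjusted p 2.72e-06). Nmnat3, a mitochondrial NAD synthase, fell by 1.23 (SE 0.13, limma adjusted p 1.04e-08), though its 4 probes ran from -1.23 to 0.20.

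Of 17 genes of the xenobiotic system tested, 4 rose and 1 fell, a share close to the background. Por, the electron donor of cytochromes P450, rose by 0.77 (SE 0.14, limma adjusted p 7.11e-05), and Nr1i2, which encodes the xenobiotic receptor PXR, by 0.66 (SE 0.14, limma adjusted p 0.000433). Cyp2b10, a target of the receptor CAR with close paralogs, rose by 2.18 (SE 0.59, limma adjusted p 0.00563), with 0.45 to 4.10 (median 1.88) at ZT8 and 2.98 to 6.01 (median 4.00) at ZT16, which overlapped.

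Protein degradation genes leaned lower. Of 31 proteasome subunits 16 fell and 0 rose by limma, each by a small amount, with a median of -0.19; at an unadjusted p below 0.05, 17 were lower and 0 higher. Psma5, a subunit of the core ring, ranged from 4.74 to 4.89 (median 4.78) at ZT8 and from 3.99 to 4.37 (median 4.33) at ZT16, without overlap (-0.53, SE 0.07, limma adjusted p 2.35e-06). Psmd3, a subunit of the cap, fell by 0.43 (SE 0.07, limma adjusted p 6.84e-06). Without control ZT16 replicate 6 the list had 14 lower genes, and over all alternatives 11 to 19.

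Autophagy and lysosome genes fell in 9 of 22 cases and rose in 3, with a median of -0.05. Gabarapl1, an ATG8 protein of the autophagosome, ranged from 7.88 to 8.16 (median 7.98) at ZT8 and from 6.69 to 6.99 (median 6.77) at ZT16. The groups did not overlap, and it fell 2.32-fold (-1.21, SE 0.10, limma adjusted p 1.14e-10). Ulk1, the kinase that starts autophagy, ranged from 5.43 to 5.68 (median 5.49) at ZT8 and from 4.23 to 4.81 (median 4.40) at ZT16 and fell 2.13-fold (-1.09, SE 0.10, limma adjusted p 1.82e-09).

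Genes of the protein synthesis machinery differed by list. Of 77 cytosolic ribosomal protein genes limma called 0, with 1 higher and 0 lower at an unadjusted p below 0.05, and their differences ran from -0.42 to 0.18 with a median of 0.02. Ribosome biogenesis genes were called more often, 9 higher and 6 lower of 39 tested, with a median of 0.16. Their share called was 38.5%, against 26.6% of all genes. Rrp12, which exports ribosome precursors, rose by 1.09 (SE 0.15, limma adjusted p 1.39e-06), and Rcl1, which processes ribosomal RNA, fell by 0.97 (SE 0.11, limma adjusted p 8.35e-08). These counts rest on single arrays: they were 12 higher and 1 lower without ZT16 replicate 6, 5 higher and 5 or 6 lower without ZT16 replicate 4 or ZT8 replicate 1 or 3, and 7 to 9 higher and 3 lower without ZT16 replicate 1 or ZT8 replicate 4 or 6. Subunits of oxidative phosphorylation had 11 of 63 higher and 0 lower by limma with a median of 0.10, a share of 17.5% against the 26.6% of all genes. At an unadjusted p below 0.05, 21 were higher and 0 lower. The number of higher subunits ran from 2 to 25 across the alternatives, so it is not a firm count.

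**Figure D4:**
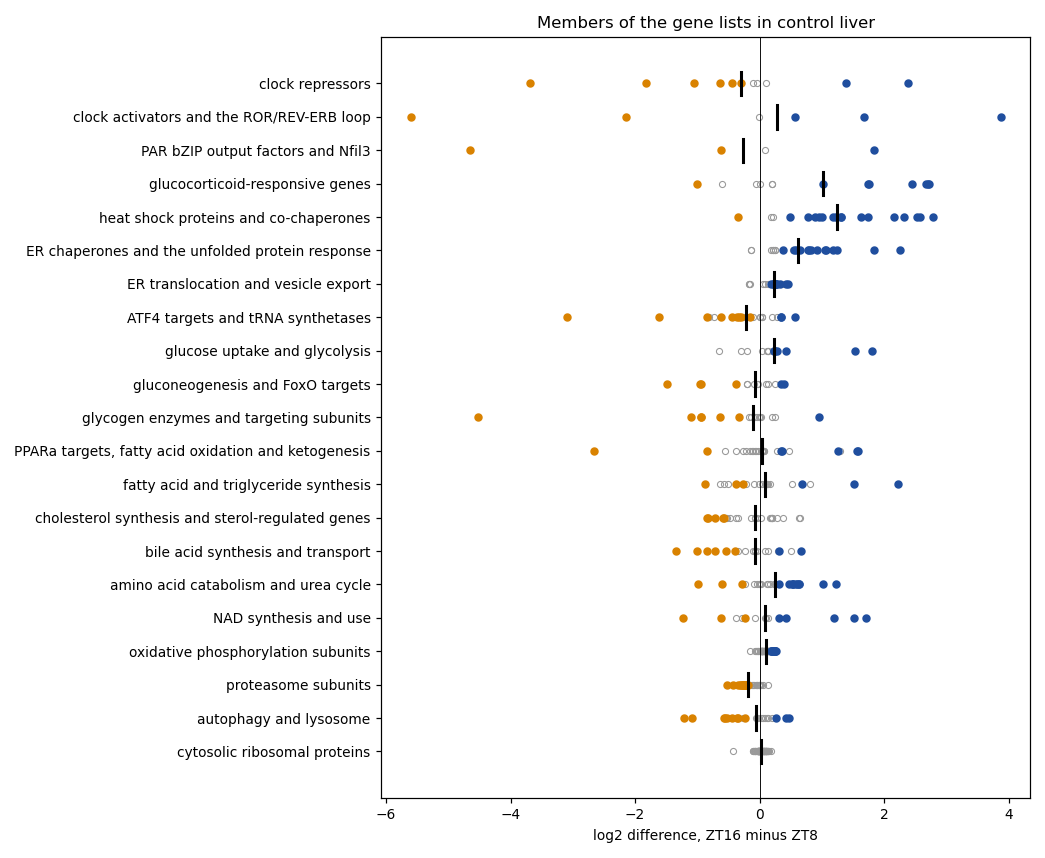
Log2 difference between ZT16 and ZT8 in control liver (horizontal axis) for the tested members of 21 gene lists (rows). Each point is a gene, filled where limma called it (blue higher, orange lower) and open where not, and the bar is the median of the list. Heat shock proteins (17 of 20 higher) and ER chaperones (14 of 22 higher) lie to the right, clock genes spread widely to both sides, and ribosomal proteins (0 of 77 called) lie near 0.

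Of 22 cell cycle genes tested 2 rose and 4 fell, a share of 27.3% that is close to the background. Besides Cdkn1a, the cyclin gene Ccne1 ranged from -0.79 to 0.38 (median -0.21) at ZT8 and from -3.35 to -1.68 (median -2.29) at ZT16, without overlap, and fell 4.55-fold (-2.19, SE 0.33, limma adjusted p 6.19e-06). Rrm2, a subunit of ribonucleotide reductase, rose by 0.87 (SE 0.22, limma adjusted p 0.00367). Wee1, a clock-controlled mitotic kinase, differed by -0.55 (SE 0.18, limma adjusted p 0.0258) with overlap, a call lost without ZT8 replicate 3 or 4 or ZT16 replicate 2, 5 or 6 (adjusted p 0.0518 to 0.0998). The list had 1 lower gene without ZT8 replicate 4, and 2 without ZT8 replicate 1, 3 or 6 or ZT16 replicate 2, 3, 5 or 6.

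Of 15 immediate early genes 3 fell and 0 rose by limma (1 was higher at an unadjusted p below 0.05), a share of 20% that is below the background. Egr1, induced within minutes by growth and stress signals, ranged from 0.60 to 2.54 (median 1.73) at ZT8 and from -2.91 to -1.73 (median -2.28) at ZT16 and fell 15.1-fold (-3.92, SE 0.49, limma adjusted p 3.24e-07). Junb fell by 1.35 (SE 0.17, limma adjusted p 2.34e-07), and the mRNA-decay factor Zfp36 fell by 0.72 (SE 0.17, limma adjusted p 0.0022). Fos overlapped and did not pass (-0.43, SE 0.33, limma adjusted p 0.37).

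Of 20 secreted hormone-like factors and hormone receptors 3 rose and 4 fell, with a median of 0.04, and 2 fell without ZT8 replicate 6 or ZT16 replicate 5. The share called was 35%, against 26.6% of all genes. In the iron list 3 of 14 genes were called, all higher, a share of 21.4% that is below the background. Hamp, the iron hormone hepcidin, ranged from 6.90 to 7.74 (median 7.34) at ZT8 and from 7.98 to 8.31 (median 8.17) at ZT16, without overlap (0.82, SE 0.14, limma adjusted p 2.3e-05). Hjv, a BMP co-receptor that raises hepcidin expression, rose by 0.71 (SE 0.15, limma adjusted p 0.000411), and the transferrin receptor Tfrc by 0.94 (SE 0.24, limma adjusted p 0.00384). Of 17 acute phase genes 4 rose and 3 fell, with 3 to 8 higher across the alternatives. Lcn2, a siderophore-binding protein, rose 3.81-fold (1.93, SE 0.46, limma adjusted p 0.00187), Saa4, a member of a family of similar sequences, 2.07-fold (1.05, SE 0.21, limma adjusted p 0.000299), whereas the fibrinogen gene Fgb fell by 0.28 (SE 0.07, limma adjusted p 0.00324) and Fgg fell by 0.30 (SE 0.08, limma adjusted p 0.00554). Enho, the peptide hormone adropin, fell 2.16-fold (-1.11, SE 0.29, limma adjusted p 0.00397), though it was not called when only the 12 arrays were fitted (adjusted p 0.0505).

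Among growth hormone and STAT5 targets 3 of 14 rose and 2 fell, with 1 to 3 in each direction across the alternatives. The share called was 35.7%, against 26.6% of all genes. Igfals, which keeps IGF1 in blood, rose by 0.80 (SE 0.20, limma adjusted p 0.00346). Igf1 rose by 0.35 (SE 0.07, limma adjusted p 0.000595) by its brightest probe, while its 3 probes ran from -0.31 to 0.35 and their mean was not called (adjusted p 0.904). Of 17 interferon-stimulated genes 3 fell (Usp18, Mx1 and Mx2), a share of 17.6%, against 26.6% called and 13.2% called lower over all genes. The number that fell ran from 1 to 8 across the alternatives. The Mx1 call was lost with normexp background correction, and both Mx calls with the slide as a fixed block. The Mx2 call was lost without ZT8 replicate 1, 2 or 4 or ZT16 replicate 3 (adjusted p 0.058 to 0.073). Of these, Usp18, which dampens interferon signalling, fell by 1.17 (SE 0.18, limma adjusted p 6.98e-06). Tubb2a, a tubulin, rose by 1.42 (SE 0.29, limma adjusted p 0.000301) in the cytoskeleton list.

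Markers of other liver cell types were set beside these results. By limma 0 of 11 Kupffer cell markers, 10 endothelial markers, 6 bile duct markers and 7 tested T and NK cell markers were called, and at an unadjusted p below 0.05 this held for all but 2 endothelial markers, 1 in each direction. All 3 tested B cell markers were called lower, without overlap, and 2 or 3 were lower across the alternatives. Among them Ms4a1 and Cd79b had log2 differences of -1.31 (-0.44 with normexp background correction) and -0.99. The list mean of the B cell markers was -1.90 to -1.55 at ZT8 and -3.31 to -2.51 at ZT16. Of 10 hepatocyte markers 4 were called: Tat (1.01), Cps1 (0.54) and Hnf4a (0.35) rose and Fgb (-0.28) fell, and the list mean was 8.05 to 8.16 at ZT8 and 8.20 to 8.48 at ZT16, without overlap. The Hnf4a call was lost without ZT8 replicate 3 or 6 or ZT16 replicate 3 or 6 (adjusted p 0.056 to 0.0664). It was also lost with quantile normalization, in the authors' table and with the slide as a fixed block. Of 11 stellate cell and fibroblast markers Lrat was called (-0.45), which was lost without ZT8 replicate 1, 3 or 6 or ZT16 replicate 1, 4, 5 or 6 (adjusted p 0.0532 to 0.115). The Lrat call also ended with the percentile over detected probes, no filter on dim probes or the slide as a fixed block. The summed level of the Kupffer cell markers overlapped, with list means of 0.94 to 1.90 at ZT8 and 1.17 to 2.61 at ZT16. Of 7 tested red cell markers only Alas2 was called (-0.87), which was lost without ZT16 replicate 3 or 6 (adjusted p 0.0701 and 0.103). The Alas2 call also ended with only the 12 arrays fitted, with the slide as a fixed block or with array weights. Of 8 neutrophil markers only Ly6g was called (0.41), which was lost without ZT8 replicate 1, 2, 4, 5 or 6 or ZT16 replicate 1, 3 or 6 (adjusted p 0.0601 to 0.128). The Ly6g call also ended with normexp, quantile normalization, no filter on dim probes or a block for replicate number. Of 5 tested pancreas markers Cela2a (-1.93) and Cela1 (-0.46) fell and Amy2a5 (0.43) rose, the last only with ZT8 replicates 1 and 4 and ZT16 replicates 1 and 3 included (adjusted p 0.059 to 0.104 without one of them). Fits of only the 12 arrays, of only the 18 control arrays or with slide as a fixed block also lost the Amy2a5 call. Of the zonal hepatocyte markers, 0 of 7 periportal genes were called (1 was lower at an unadjusted p below 0.05), and of 7 pericentral genes Lgr5 (-1.33) fell and Slc1a2 (0.36) rose. The part of any of these cells in the results was not tested.

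The control change was next set against the change of the knockouts between the same times, with no arrays in common, and the difference of both changes was tested. It passed for 2237 genes (9.78%), with the control change the more positive for 987 and the more negative for 1250. In the knockouts alone 28.9% of genes were called. The knockout change of Ciart can only be bounded, because no knockout ZT16 array was well above background: it fell 3.56-fold in controls and at least 22.2-fold in knockouts, where the measured means were -0.57 ± 0.31 at ZT8 and -6.58 ± 0.60 at ZT16 (SD, n = 6), and the changes differed by the test (limma adjusted p 3.35e-07). Per2 rose in controls and fell in knockouts (1.39 and -0.77), with a difference of 2.16 (SE 0.22, limma adjusted p 3.21e-07). Per1, which did not pass in controls, fell by 1.92 in knockouts, and the changes differed by 1.87 (SE 0.29, limma adjusted p 9.78e-05). Per3 (-1.05 and -2.80) and Tef (-0.62 and -2.10) had the smaller fall in controls, with differences of 1.75 (SE 0.23, limma adjusted p 8.46e-06) and 1.48 (SE 0.17, limma adjusted p 1.86e-06). Nr1d1 went the other way, with the larger fall in controls (-5.60 and -4.32, difference -1.29, SE 0.36, limma adjusted p 0.0183).

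In the glucocorticoid-responsive list the difference between the changes was called for 6 of 13 genes, with the control change the more positive for 5 and the more negative for Sgk1, a kinase gene (-0.06 and 1.55, difference -1.61, SE 0.39, limma adjusted p 0.00725). Fkbp5 rose by 2.73 in controls, while the knockout difference of -0.12 did not pass, and the changes differed by 2.84 (SE 0.35, limma adjusted p 3.62e-06). Mt2 (2.45 and -0.55) and Zbtb16 (2.71 and 0.84) had differences of 3.00 (SE 0.66, limma adjusted p 0.00276) and 1.87 (SE 0.49, limma adjusted p 0.0114). Ddit4 rose in both (2.68 and 2.24), and its changes did not differ by the test (0.44, limma adjusted p 0.681). In the heat shock list the difference was called for 13 of 20 genes, the control change being the more positive for each of the 13, against 9.78% of all genes. Hsph1 rose by 2.78 and 1.63 (difference 1.15, SE 0.24, limma adjusted p 0.00166), and Hspa8 by 1.63 and 0.66 (difference 0.98, SE 0.13, limma adjusted p 1.29e-05). Cirbp changed by -2.0 and -0.74, with a difference of -1.26 (SE 0.19, limma adjusted p 7.26e-05). Of the 22 ER chaperones 1 was called for the difference, and Creld2 rose by 2.25 in controls and 2.39 in knockouts. Across the alternatives the heat shock count ran from 10 to 15 and the ER count from 1 to 3, with 2 called without control ZT8 replicate 1, knockout ZT8 replicate 1 or knockout ZT16 replicate 4 and 3 without knockout ZT8 replicate 3.

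**Figure D5:**
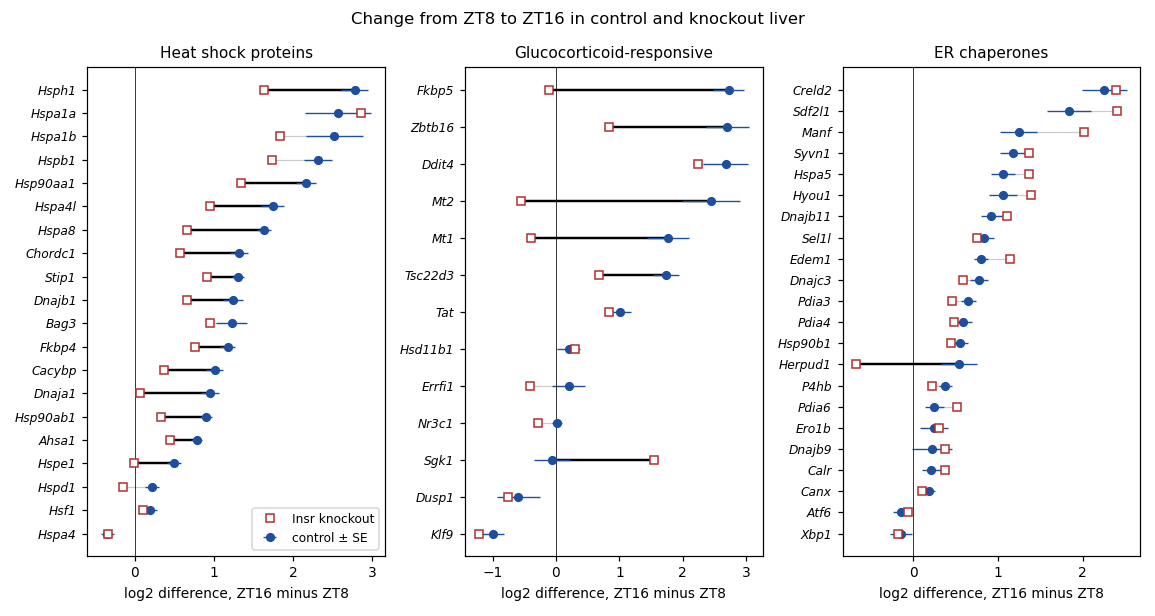
Log2 difference between ZT16 and ZT8 (horizontal axes) for the members of 3 gene lists (rows), in controls (filled circles, with bars of 1 SE on either side) and knockouts (open squares). A thick black line joins the 2 values where limma called the difference between the changes, as for 13 of 20 heat shock genes and 1 of 22 ER chaperones.

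Genes with the widest differences between both changes, among those well above background on all 24 arrays, included the acyl-CoA thioesterases Acot3 (0.99 in controls, -2.19 in knockouts, difference 3.17, SE 0.66, limma adjusted p 0.00186) and Acot5 (1.33 and -1.42, difference 2.75, SE 0.54, limma adjusted p 0.00102; 0.79 in controls as the mean of its probes), whose sequences are similar. St3gal5, which makes the ganglioside GM3, rose by 1.66 in controls and fell by 0.81 in knockouts, so that the changes differed by 2.47 (SE 0.26, limma adjusted p 5.84e-07). In the other direction, Wwox had a difference of -2.62 (SE 0.29, limma adjusted p 7.11e-07), the histone gene H1f2 one of -2.55 (SE 0.43, limma adjusted p 0.000246) and Adgrf1 one of -2.22 (SE 0.41, limma adjusted p 0.0005). Of the named genes called for this difference, Ciart aside, the mean of the probes ended the call for Wwox (-0.31, adjusted p 0.407), and no other alternative or array left out ended one. Ppp1r3c, a further glycogen-targeting subunit, did not pass in controls (0.24, SE 0.32, limma adjusted p 0.646) and rose by 2.58 in knockouts, so that the changes differed by -2.33 (SE 0.46, limma adjusted p 0.000957). Trib3 changed by -3.09 and -0.92, a difference of -2.18 (SE 0.36, limma adjusted p 0.00021). Nampt rose in controls and fell in knockouts (1.20 and -0.48), a difference of 1.68 (SE 0.25, limma adjusted p 5.42e-05). Thrsp, at 1.52 in controls, had a knockout value of -0.70 that did not pass, and a difference of 2.22 (SE 0.45, limma adjusted p 0.00144).

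A few genes did not follow the course from ZT8 through ZT12 to ZT16. The transcription factor gene Mycn ranged from -3.16 to -1.70 (median -2.75) at ZT8, from -2.01 to 0.41 (median -0.21) at ZT12 and from -4.04 to -1.48 (median -2.13) at ZT16. Its ZT12 level was above both others by limma (adjusted p 0.000396 against ZT8 and 0.00462 against ZT16), while ZT16 and ZT8 did not differ by the test (0.13, SE 0.40, limma adjusted p 0.863). The galactosyltransferase gene B3galt1 did the same, with 1.19 to 2.59 (median 1.88) at ZT12 against 0.47 to 0.90 (median 0.86) at ZT8 and -0.19 to 1.13 (median 0.70) at ZT16. Gdf15, a stress hormone, was lowest at ZT12, with 0.13 to 1.12 (median 0.54) against 0.64 to 3.00 (median 2.14) at ZT8 and 1.09 to 4.87 (median 1.67) at ZT16.

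Some wide spreads came from 1 array. The microtubule-binding gene Mapre1 was at 9.76 on ZT8 replicate 3, while the next ZT8 array was at 2.63. Amer1, a regulator of WNT signalling, was at 5.84 on the same array against -0.04 on the next. Its difference between ZT16 and ZT8 was -1.60 (SE 0.57, limma adjusted p 0.0359) with that array and -0.59 (adjusted p 7.55e-05) without it. The call was lost without ZT16 replicate 1, 3 or 4 (adjusted p 0.0514 to 0.0708). It was also lost without the filter on dim probes, with slide as a fixed block or with only control arrays fitted (12 or 18). ZT8 replicate 3 had 7 genes at least 16-fold above every other array of its group and ZT16 replicate 6 had 11, against 0 to 2 on the other control arrays.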

How the data were processed

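Total RNA was labelled with Cy3 and hybridised to 1-colour Agilent arrays. Spot intensity was read with Agilent Feature Extraction 10.10.1.1, per the file headers and the submitters' processing notes, which also name limma without a version. The deposited signal is background-subtracted and detrended, and deposited spot flags (scores of 0 or 1) mark spots well above background, saturated spots and outliers. The authors also deposited a table of log2 values, used as an alternative; its normalization is not given in the sources used here. Its columns hold the same sorted values with a median of 7.65, and it correlates with the scanner values of the same array at 0.988 or more.

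Each array was scaled to its 75th percentile and log2-transformed. Probes well above background on 6 arrays of any group were kept (34769), 91 probes with a missing value were left out, and the brightest probe stood for a gene. The 22882 genes were fitted over all 36 arrays with limma 3.58.1 in R 4.3.3 (with the package data.table, version 1.17.8), with group and wash batch as terms, and p-values were adjusted by Benjamini-Hochberg over all genes. The fit was tested on simulated data. The wash batch holds ZT16 and ZT8 control arrays in numbers of 1 and 2, 2 and 2, and 3 and 2. Symbols come from RefSeq by accession or symbol for 16836 of the 22882 genes, and otherwise from the array files. Probe positions come from the files (mm9), and figures from Python 3.11.15 with matplotlib 3.10.9. Whether a probe lies in an exon or UTR was not determined. An exact permutation test of 6 against 6 arrays can reach 0.00216 at the smallest. The number of arrays limits the precision.

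Members and gene lists were chosen with earlier results of these data known. Genes are named by rule: the 15 largest rises and falls that were well above background on all 12 arrays without overlap, list members, genes seen at 1 time only, the widest differences from the knockouts, genes whose ZT12 level lies outside both others, and genes with the largest spread. A few genes that the rule would name are not reported here. Sex-dependent genes were chosen after their values were seen. Alternatives covered background correction (normexp with an offset of 50), scaling, the authors' table, filters, probe choice, the arrays fitted, batch and slide terms, variance settings and each array left out.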

Additional observations from a re-analysis of the deposited data

Results flagged for a closer look

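In 322 groups of 6 arrays (each named gene at ZT8 and ZT16), 21 had an end array far from the next, measured as that gap over the whole range and set against Dixon's critical value. Chance flags about 1 in 20 groups where genes are chosen without regard to their spread. Some genes here were named for a large spread or after their values were seen, so the count is not set against that rate. ZT16 replicate 6 was the low array for Hsd3b5 (0.711), Ppp1r3g (0.726), Psma5 (0.763), Fgb (0.649) and Fgg (0.717), which was 5 of the 9 at ZT16. The others there were Hsp90ab1 (0.678, replicate 2), Chac1 (0.652, replicate 3), Hnf4a (0.638, replicate 3) and G6pc (0.71, replicate 5). At ZT8, replicate 3 was the high array for Mapre1 (0.966), Amer1 (0.952) and Stbd1 (0.694). Replicate 6 was high for Mt2 (0.643), Hjv (0.675) and Sult2a1 (0.746) and low for Hsd3b5 (0.658). The others at ZT8 were Cry1 (0.654) and Cyp3a44 (0.686) on replicate 2, Cela1 (0.726) and Hnf4a (0.646) on replicate 4 and Psmd3 (0.751) on replicate 5.

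The control change between ZT8 and ZT16 differed from the knockout change by limma's test of the difference for the genes below. On the log2 scale, the control change was the more positive for Acot3 (3.17), Mt2 (3.00), Fkbp5 (2.84), Acot5 (2.75), St3gal5 (2.47), Thrsp (2.22), Per2 (2.16), Per1 (1.87), Zbtb16 (1.87), Per3 (1.75), Nampt (1.68), Tef (1.48), Hsph1 (1.15) and Hspa8 (0.98). It was the more negative for Wwox (-2.62), H1f2 (-2.55), Ppp1r3c (-2.33), Adgrf1 (-2.22), Trib3 (-2.18), Sgk1 (-1.61), Nr1d1 (-1.29) and Cirbp (-1.26). These genes were chosen partly for that difference.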

How the results depend on the processing

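Over 15 other settings 5220 to 7312 genes were called, and 5412 to 5805 with 1 control array left out (2673 to 2915 higher and 2699 to 2890 lower). Genes at 2-fold or more numbered 335 with normexp background correction and its offset of 50, 417 in the authors' table and 485 when all 36 arrays had to be well above background, against 826, and 795 to 856 with 1 array left out. The difference between control and knockout changes was called for 4010 genes with array weights against 2237, and for 1816 to 3249 with 1 array left out, the most without knockout ZT8 replicate 3. The replicate block gave 5920 calls (2985 higher, 2935 lower), 812 at 2-fold and 2280 for the control and knockout difference. Same-numbered arrays deviated together with r of -0.0827 to 0.178, which does not settle whether the numbers pair them. Of the 140 named genes called, with Bhlhe41 and Gpr12 counted, 118 stayed called under every alternative and 22 lost the call under some.

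Of the 6085 genes called, 119 changed sign when the mean of a gene's probes was used, and 5080 were still called in either direction. Among the named genes and list medians some small values changed sign. The cause was not tested. Rora was 0.018 with the percentile over detected probes, Cry2 0.043 and Rora 0.007 as probe means, Mycn -0.029 in the 12 arrays alone, Per1 0.016 without the wash batch and Gdf15 -0.01 with array weights. With 1 array left out Per1 ran from -0.152 to 0.061, Rora from -0.045 to 0.014, Hlf from -0.002 to 0.17, Mycn from -0.009 to 0.527, Sgk1 from -0.138 to 0.11 and Gdf15 from -0.073 to 0.607. The median of ribosomal proteins was -0.055 in the authors' table, and that of clock activators -0.015 with no filter on dim probes. Within wash batch 1, which has 1 ZT16 array, Per1 was 0.641, Rora 0.12, Hspd1 -0.018 and Mycn -1.372, and list medians were -0.029 for apolipoproteins, -0.122 for ribosomal proteins, 0.182 for gluconeogenesis, -0.196 for ribosome biogenesis, 0.105 for red cell and 0.679 for stellate cell markers. Within batch 2 they were -0.123 for the cytoskeleton, -0.092 for neutrophil, 0.007 for pericentral and 0.032 for periportal markers. Within batch 3 they were 0.207 for growth hormone targets and 0.071 for pancreas, and Cyp3a44 was -0.066, Sult2a1 -0.338 and Cyp2b9 -0.529.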
